A study of Mus musculus with 2 samples.

Results

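The metallothioneins Mt1 and Mt2 and 8 genes of the Nrf2 antioxidant system were measured in hepatic stellate cell preparations from mouse livers, and compared between a library in which p16-high hepatocytes had been targeted for elimination and its control library. Mt1 was 1.53-fold higher and Mt2 1.42-fold higher in the stellate cells of the elimination library, and both stayed under 1.5-fold within ranges of like stress-gene level. The 7 Nrf2 genes measured above a level limit in these cells differed over the whole class by less than 1.5-fold in either direction. In Kupffer cells Gclm was 2.20-fold lower in the elimination library, with 60.4% of its UMIs in the control held by the top 10% of cells and medians per cell of 0.941 and 0.692 UMIs per 10000. Among the members above the level limit, Gclm alone stayed past 1.5-fold in the cells rich in Clec4f, a marker of resident Kupffer cells. In endothelial cells Nqo1 was 2.56-fold higher, on 32 and 53 UMIs. The 10 genes, Mt1, Mt2, Hmox1, Nqo1, Gclc, Gclm, Txnrd1, Srxn1, Slc7a11 and Nfe2l2, were chosen by symbol among 31054 features of the count matrices, and each matched 1 feature.

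The libraries came from livers of male mice after 4 weeks of carbon tetrachloride (CCl4), a hepatotoxin that causes liver fibrosis, together with tamoxifen, which activates the recombinases, and diphtheria toxin. The p16-Alb-LRTD mice carried R26-CAG-LSL-RSR-tdTomato-2A-DTR, an allele that gives tdTomato and the diphtheria toxin receptor once both Cre and Dre have acted, with p16-CreERT2 and Alb-DreERT2, so that the toxin is aimed at hepatocytes that express p16 highly. The littermate controls, p16-LRTD, carried p16-CreERT2 and the R26 allele without Alb-DreERT2, and received the same CCl4, tamoxifen and toxin. Stellate cells, the vitamin A-storing and collagen-producing mesenchymal cells of the liver, were prepared by pronase and collagenase perfusion and a Nycodenz density gradient, and the comparison asks how they differ when p16-high hepatocytes are eliminated.
Targeting rests on the p16 and albumin promoters, and hepatocytes themselves were not isolated in these libraries. At 4 weeks the paper saw very mild fibrosis away from the central veins only in its Alb-LRTD and p16-Alb-LRTD mice. It speculates that the stop before the receptor leaked. The p16-LRTD controls lack Alb-DreERT2, and the part of such leakage in the values here was not tested. Age and the number of mice pooled per library were not given, and there was 1 library per genotype, so no test between genotypes was possible and every interval here covers counting error only, not the spread between mice.

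Nrf2, encoded by Nfe2l2, is a transcription factor that is held down by Keap1, which hands it to a ubiquitin ligase. Oxidants and electrophiles modify Keap1, and Nrf2 then pairs with small Maf proteins on antioxidant response elements. Its targets supply glutathione (Slc7a11, Gclc, Gclm), reduce thioredoxin and oxidised peroxiredoxins (Txnrd1, Srxn1), degrade haem (Hmox1) and reduce quinones (Nqo1). Metallothioneins are small cysteine-rich proteins that bind zinc and copper and can scavenge radicals. Their genes are known to respond to metals through the transcription factor MTF1, which binds metal response elements, and also to glucocorticoids and to stress.

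Mt2 lies at chr8:94172664-94173568 and Mt1 at chr8:94179082-94180327, both on the plus strand of GRCm38 (GENCODE vM21), with 5513 bases between them. The promoter windows of these neighbours are shown because their RNAs were higher together in the elimination library, and that of Gclm (gene at chr3:122245557-122270732) because it was the member most clearly lower in Kupffer cells. Each window holds the 250 bases before a RefSeq transcript start, 5′ to 3′ on the plus strand (GRCm38.p6). Capitals mark metal response element cores (TGCACNC or TGCGCNC, either strand) in Mt1 and Mt2, and the antioxidant response element core (TGACNNNGC, either strand) in Gclm.
Mt1 chr8:94178839-94179088: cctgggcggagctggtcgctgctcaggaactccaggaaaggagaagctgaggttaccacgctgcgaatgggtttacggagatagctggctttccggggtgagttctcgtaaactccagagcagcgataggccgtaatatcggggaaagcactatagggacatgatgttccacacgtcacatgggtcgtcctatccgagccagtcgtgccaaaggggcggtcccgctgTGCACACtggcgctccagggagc
Mt2 chr8:94172368-94172617: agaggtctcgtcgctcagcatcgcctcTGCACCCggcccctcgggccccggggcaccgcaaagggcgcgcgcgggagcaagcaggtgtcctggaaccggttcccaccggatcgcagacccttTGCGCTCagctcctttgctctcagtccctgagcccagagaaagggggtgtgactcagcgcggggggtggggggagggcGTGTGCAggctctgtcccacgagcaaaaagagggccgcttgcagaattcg
Gclm chr3:122245307-122245556: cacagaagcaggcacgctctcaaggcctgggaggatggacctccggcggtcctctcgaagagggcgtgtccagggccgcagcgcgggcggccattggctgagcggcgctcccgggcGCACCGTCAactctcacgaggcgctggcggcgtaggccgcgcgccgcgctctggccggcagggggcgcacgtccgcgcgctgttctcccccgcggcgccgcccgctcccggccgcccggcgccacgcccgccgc
The Mt1 window held 1 metal response element core and the Mt2 window 3. Among 32851 RefSeq promoter windows of this length, 21.4% held at least 1 such core and 1.26% held 3 or more. In the Mt2 window an antioxidant response element core and an AP-1 site (TGANTCA) share bases. In the Gclm window the antioxidant core overlaps 1 of 2 metal cores. Windows were found for 8 of the 10 genes, among which 4 held a metal core and 4 held an antioxidant core, a motif held by 10.2% of all windows. The AP-1 site was in windows of 2 of the 8 genes and in 6.75% of all windows, and the palindromic consensus of the glucocorticoid response element was in none of the 8 genes' windows and in 0.0609% of all windows. GENCODE also lists later transcript starts for Mt1, at 94179211 and 94179241, for Mt2, at 94172860, and for Gclm, from 122245668 to 122261779. It starts Mt2 at 94172664, past the end of its window. The bases between the windows and these starts were not searched. A match of letters is a description and does not show binding.

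After the study's limits on barcodes, 9004 of 11149 barcodes remained in p16-LRTD and 7416 of 8806 in p16-Alb-LRTD. A barcode was called stellate when Lrat, Ecm1, Hgf and Reln together made at least 15 of 10000 UMIs (unique molecular identifiers, each standing for 1 captured RNA molecule), endothelial when Kdr, Stab2 and Ptprb made at least 8, and Kupffer, the resident macrophage of the liver, when Clec4f, Cd5l, Vsig4 and Csf1r made at least 8. Barcodes that met several rules (245 and 221) or none (194 and 113) were left out of the classes. This gave 7852 and 6621 stellate cells, 430 and 283 endothelial cells, and 283 and 178 Kupffer cells in p16-LRTD and p16-Alb-LRTD. All 6 further markers of each class, which the rules did not use, were detected in it, and those of stellate cells (Dcn, Colec11, Pdgfrb, Rgs5, Des, Cygb) summed to 25258 and 27963 counts per 1000000 UMIs of the class (CPM) in stellate cells against 303 to 446 CPM in the other 2 classes. The 10 hepatocyte markers, Alb among them, summed to 78.2 and 57.8 CPM in stellate cells, 112 and 140 CPM in endothelial cells and 42.7 and 40.7 CPM in Kupffer cells, and none was at 0. Kupffer markers in stellate cells were at 0.0726% to 0.609% of their level in Kupffer cells, a measure of RNA carried over between classes. Barcodes that met both rules had been left out, which bounds this measure. There were 95 barcode sequences common to the libraries, 18 of them kept in both, and the metallothionein ratio of stellate cells without them is given with the alternatives.

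The libraries also differed in lists of genes that are not members. All 12 genes of a stress and dissociation list, among them Fos, Junb, Egr1 and Hspa1b, and all 9 genes of a glucocorticoid list, among them Fkbp5, Zbtb16 and Nr3c1, had a ratio above 1 in each of the 3 classes, beside 39.3% to 42.4% of all genes. The median stellate cell had 66.9 stress-list UMIs per 10000 in p16-LRTD and 107 in p16-Alb-LRTD. Zbtb16 was at 59.5 CPM in stellate cells of p16-LRTD and 647 CPM in those of p16-Alb-LRTD. With 1 library per genotype, the handling of a preparation and the genotype cannot be told apart.

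In stellate cells both metallothioneins were higher in p16-Alb-LRTD. Mt1 was at 589.6 CPM (95% Poisson interval 586 to 594) in p16-LRTD against 905 (899 to 909.9) in p16-Alb-LRTD. The log2 ratio, given throughout as p16-Alb-LRTD over p16-LRTD with its exact conditional 95% interval, was 0.62 (0.60 to 0.63), which is higher than that of 97.3% of the 10179 genes with a mean of at least 5 CPM in this class. Mt2 was at 182 CPM and 258 CPM, a log2 ratio of 0.50 (0.48 to 0.53). Their summed level gave a log2 ratio of 0.59 (0.58 to 0.60). Of the 10 members 9 had a mean of at least 5 CPM in stellate cells, and 1 of them, Mt1, was past 1.5-fold higher, against 3.03% of all genes at that level. None was past 1.5-fold lower, against 3.05% of all genes.

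**Figure D1:**
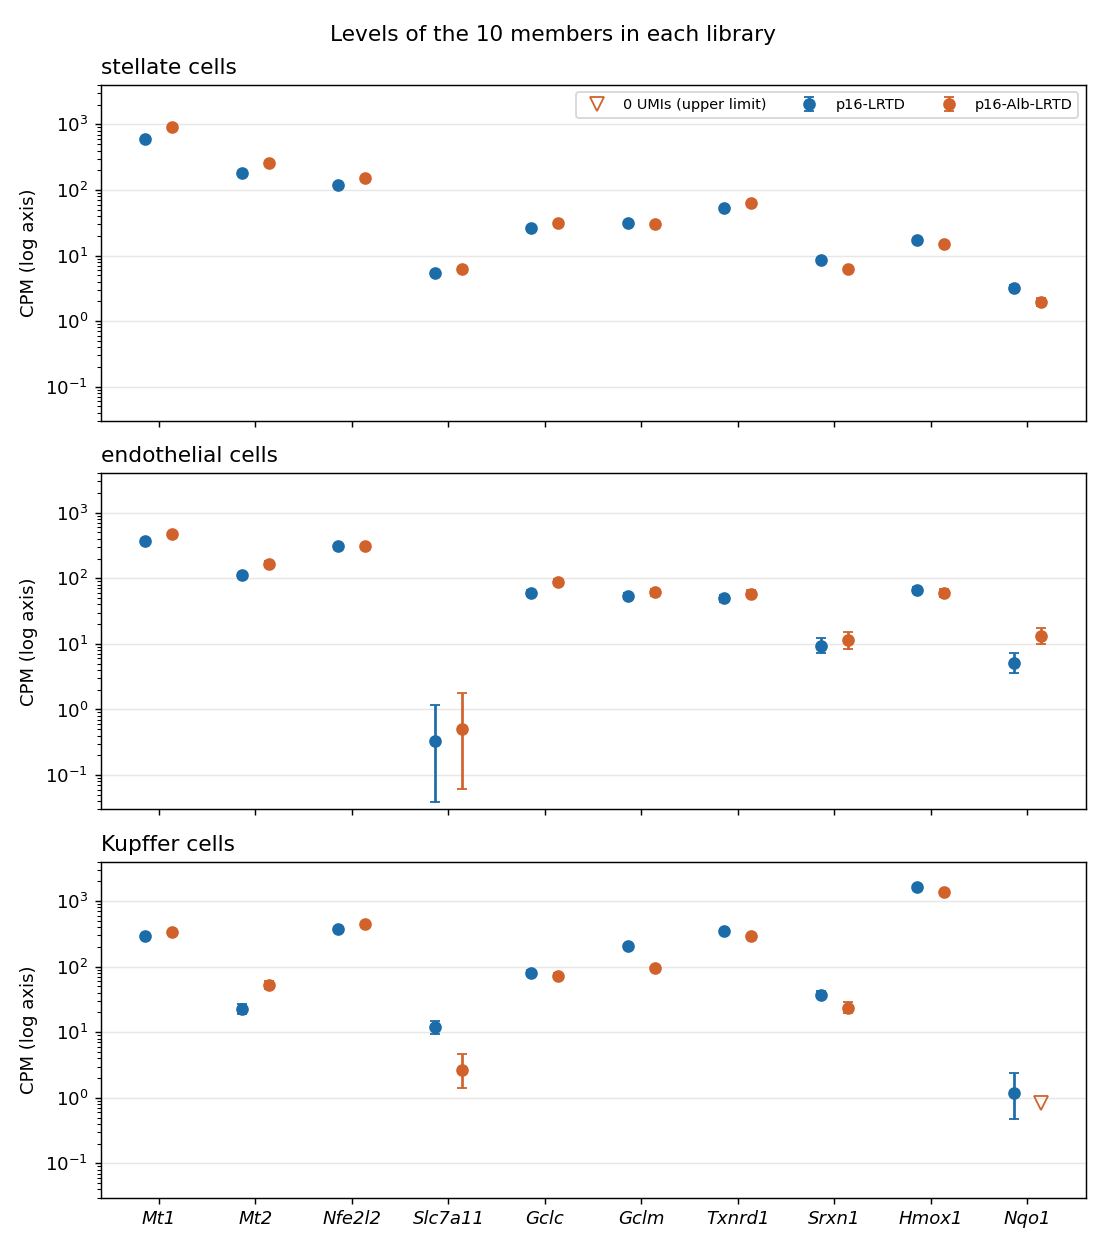
Level of each of the 10 genes in CPM (logarithmic axis) in stellate, endothelial and Kupffer cells, with 1 point per library and 95% Poisson intervals that are often smaller than the points. Mt1 stands at 589.6 and 905 CPM in stellate cells, Hmox1 at 1657 and 1371 CPM in Kupffer cells, and the open triangle gives the upper limit for Nqo1, which had 0 UMIs in Kupffer cells of p16-Alb-LRTD.

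The difference was present from the 10th to the 99th percentile of stellate cells. The median cell had 5.62 Mt1 and Mt2 UMIs per 10000 in p16-LRTD and 8.22 in p16-Alb-LRTD, the 10th percentile 1.53 and 2.15, and the 90th percentile 14.9 and 21.8. The gap was widest at the 99th percentile, with 32.3 and 69.8. After each cell had been thinned to 5000 UMIs, Mt1 was detected in 82.6% of cells (exact 95% interval 81.7 to 83.4%) in p16-LRTD and 89.0% (88.2 to 89.7%) in p16-Alb-LRTD, and Mt2 in 48.9% (47.8 to 50.04%) and 55.2% (54.0 to 56.4%). Without thinning, Mt1 was detected in 96.2% and 98.1% of cells and Mt2 in 79.5% and 83.3%.

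Set against 3 measures of cell state, each divided at its tertiles over both libraries, the metallothionein difference kept its direction in every tertile but not its size. By the stress list, the log2 ratio of Mt1 was 0.31, 0.39 and 0.33 in the low, middle and high tertiles, all below 1.5-fold, and that of Mt2 was 0.23, 0.36 and 0.18. With equal shares of these tertiles in the libraries the summed log2 ratio was 0.33 in place of 0.59, and no member remained past 1.5-fold. Within p16-LRTD alone, Mt1 stood at 432 CPM in the low and 826 CPM in the high stress tertile, and within p16-Alb-LRTD at 537 and 1038 CPM. The part of the stress genes in the Mt1 and Mt2 difference was not tested beyond these values.
By collagen UMIs (Col1a1, Col1a2 and Col3a1), the log2 ratio of Mt1 was 0.77, 0.73 and 0.49 from the low to the high tertile, and that of Mt2 was 0.81, 0.61 and 0.15. In cells of the high collagen tertile, Mt2 was at 199.8 CPM in p16-LRTD against 222 in p16-Alb-LRTD, and in those of the low tertile at 144 and 253 CPM. Mt2 thus was lowest in the collagen-low cells of p16-LRTD. By total UMIs, the log2 ratio of Mt1 lay between 0.53 and 0.69 and that of Mt2 between 0.37 and 0.57.

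**Figure D2:**
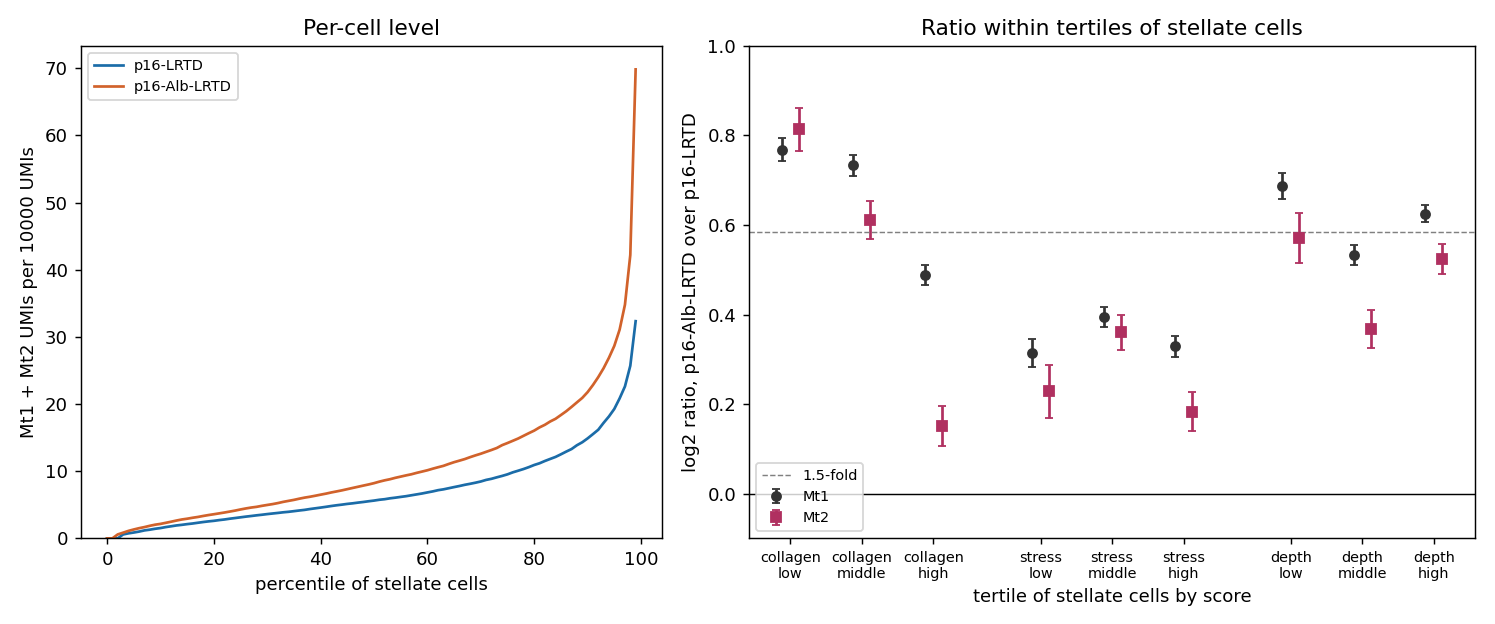
Left, Mt1 and Mt2 UMIs per 10000 UMIs of a stellate cell against the percentile of cells up to the 99th, 1 line per library, at 5.62 and 8.22 for the median cell. Right, log2 ratio of Mt1 and Mt2 (p16-Alb-LRTD over p16-LRTD, 95% counting intervals) within tertiles of the stellate cells by collagen UMIs, stress-list UMIs and total UMIs, with values between 0.15 and 0.81 and the Mt1 values by stress all under the dashed 1.5-fold line.

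Mt1 and Mt2 varied together from cell to cell, with Pearson's r of their log-normalised values at 0.58 over the 7852 stellate cells of p16-LRTD and 0.65 over the 6621 of p16-Alb-LRTD. Among 9514 genes detected in at least 10% of stellate cells of each library, the 5 whose values were most like the sum of both were Junb, Fos, Egr1, Socs3 and Zfp36. These are immediate early transcription factors (Junb, Fos, Egr1), a feedback inhibitor of cytokine signalling (Socs3) and an RNA-binding protein that shortens the life of inflammatory transcripts (Zfp36). Their r was 0.42, 0.43, 0.38, 0.39 and 0.32 in p16-LRTD and 0.42, 0.39, 0.39, 0.37 and 0.33 in p16-Alb-LRTD, over cells that share a library and its depth, and Junb, Fos and Egr1 are also in the stress list. For Hmox1 the same rule gave Wt1, Alcam, Plat, Gas7 and Emp1, with r of 0.13 to 0.14 in p16-LRTD and 0.14 to 0.18 in p16-Alb-LRTD, too weak in sparse counts to describe a pattern.

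Nfe2l2, the gene of Nrf2 itself, was at 121 CPM in stellate cells of p16-LRTD and 154 CPM in those of p16-Alb-LRTD, for a log2 ratio of 0.35 (0.32 to 0.38). Its log2 ratio was 0.29 to 0.35 within the collagen tertiles and 0.20 to 0.29 within the stress tertiles. After thinning, 43.7% and 51.1% of stellate cells held an Nfe2l2 UMI, and 82.5% and 89.0% without thinning.
The genes of glutathione supply did not move as one. Gclc, the catalytic subunit of glutamate-cysteine ligase, was at 26.2 and 31.3 CPM, a log2 ratio of 0.26 (0.19 to 0.32). Gclm, its modifier subunit, was at 31.8 and 29.8 CPM, a log2 ratio of -0.09 (-0.15 to -0.03). Slc7a11, the cystine importer, was near the lower limit of 5 CPM, at 5.51 and 6.29 CPM, a log2 ratio of 0.19 (0.05 to 0.34). The catalytic subunit was thus slightly higher and the modifier subunit slightly lower in the elimination library, both within 1.5-fold over all stellate cells. By collagen tertile, however, the log2 ratio of Gclc was 0.08 in the low and in the middle tertile and 0.65 (0.54 to 0.77) in the high one, past 1.5-fold, at 24.5 CPM in p16-LRTD against 38.6 in p16-Alb-LRTD. The high tertile had 3509 and 1315 cells, and the share of all genes past 1.5-fold in it was not computed. Over all stellate cells the top 10% held 55.8% and 58.2% of the Gclc UMIs.
The thioredoxin arm was split as well. Txnrd1, which reduces thioredoxin, was at 52.8 and 63.7 CPM, a log2 ratio of 0.27 (0.23 to 0.32). Srxn1, which repairs oxidised peroxiredoxins, was at 8.56 and 6.31 CPM, a log2 ratio of -0.44 (-0.57 to -0.31), and its ratio was below 1 in each collagen, stress and depth tertile. Hmox1, the inducible haem oxygenase, was at 17.3 and 14.9 CPM, a log2 ratio of -0.21 (-0.30 to -0.12). Its interval lay below 0 in 1 tertile each of collagen, stress and depth, its log2 ratio was 0.04 (-0.11 to 0.19) in the high collagen tertile, and with equal shares of the collagen tertiles in the libraries it was -0.09. The 6 further Kupffer markers summed to 22.2 and 17.0 CPM in stellate cells, lower in p16-Alb-LRTD as well, and the part of RNA from Kupffer cells in the Hmox1 value was not tested. Nqo1, the quinone reductase, was at 3.21 and 1.97 CPM, under the level limit, and its log2 ratio was -0.71 (-0.94 to -0.48) on 458 and 246 UMIs. Over the 7 Nrf2 members that passed the limit the median log2 ratio was 0.19, beside -0.05 for all 10179 genes, with 4 above 0 (Nfe2l2, Txnrd1, Gclc, Slc7a11) and 3 below 0 (Gclm, Hmox1, Srxn1).

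**Figure D3:**
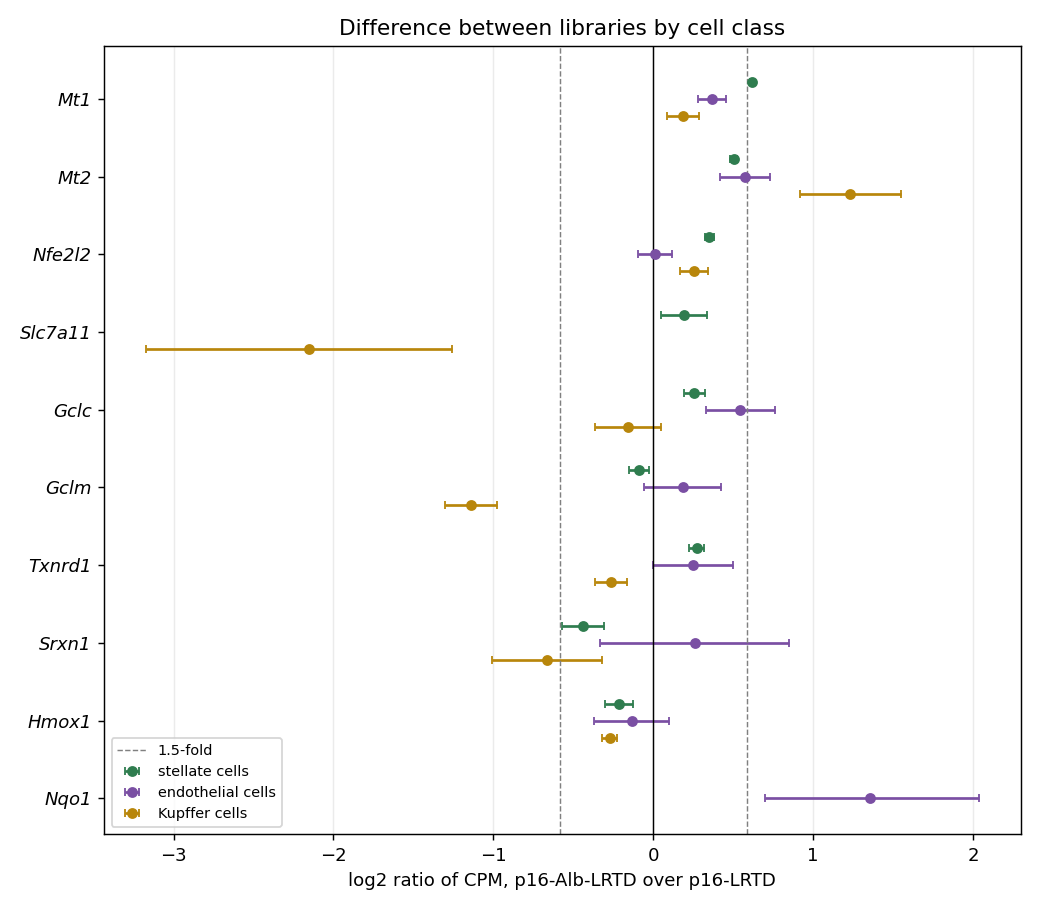
Log2 ratio of CPM (p16-Alb-LRTD over p16-LRTD) for each member with a mean of at least 5 CPM in the class, coloured by cell class, with 95% counting intervals and dashed lines at 1.5-fold. Mt1 and Mt2 lie above 0 in every class (Mt1 at -0.10 in Kupffer cells with at least 8 Clec4f UMIs per 10000), and the Kupffer values of Gclm at -1.14 and Slc7a11 at -2.15 lie far to the left.

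Endothelial cells held the same metallothionein direction at lower precision, since the class had 430 and 283 cells. Mt1 was at 369.7 CPM in p16-LRTD against 476 in p16-Alb-LRTD, for a log2 ratio of 0.37 (0.28 to 0.45). Mt2 was at 113 and 168 CPM, a log2 ratio of 0.57 (0.42 to 0.73), just under 1.5-fold. It was past 1.5-fold under TMM scaling (0.65), with barcodes of several rules kept (0.66), with the marker minimum halved (0.64) and as a mean of per-cell CPM (0.61). With a mitochondrial limit of 10% it was 0.42. The difference of the Mt1 log2 ratio between endothelial and stellate cells was -0.25 (-0.34 to -0.16), and that of Mt2 was 0.07 (-0.08 to 0.23).
Nqo1 was the 1 member past 1.5-fold higher in endothelial cells, against 6.44% of the 9858 genes tested. It was at 5.20 CPM in p16-LRTD against 13.3 in p16-Alb-LRTD, for a log2 ratio of 1.36 (0.70 to 2.04). It rests on 32 and 53 UMIs, of which the top cell of each library held 3 and 9. It was detected in 1.67% (0.676 to 3.42%) of thinned endothelial cells of p16-LRTD and 7.07% (4.37 to 10.7%) of those of p16-Alb-LRTD, and in 5.81% and 13.4% without thinning. In thinned stellate cells it was in 1.57% and 0.983%, and the intervals of the p16-LRTD shares in endothelial and stellate cells overlap, at median depths before thinning of 11781 and 17024.5 UMIs. The Nqo1 log2 ratio differed between endothelial and stellate cells by 2.06 (1.39 to 2.73). Markers of other cells summed in endothelial cells to 446 and 351 CPM for stellate cells (6 of 6 detected in each library), 67.1 and 50.5 CPM for Kupffer cells (6 of 6), 12.5 and 0 CPM for lymphocytes (6 and 0 of 6), 13.8 and 2.26 CPM for portal fibroblasts and mesothelium (6 and 5 of 6) and 1.14 and 8.54 CPM for neutrophils and monocytes (3 and 4 of 5), and their part in the Nqo1 difference was not tested.
No member was past 1.5-fold lower, against 13.5% of genes. Gclc was at 60.3 and 87.9 CPM, a log2 ratio of 0.54 (0.33 to 0.76), and was past 1.5-fold higher under TMM scaling. Over the alternatives its log2 ratio lay between 0.37 and 0.62. The top cell held 8 of 371 Gclc UMIs in p16-LRTD and 33 of 350 in p16-Alb-LRTD. After thinning, Gclc was in 24.2% (20.1 to 28.6%) and 29.3% (24.1 to 35.0%) of endothelial cells. The intervals of Gclm, Txnrd1, Srxn1, Hmox1 and Nfe2l2 held 0. Nfe2l2 was at 306 and 308 CPM, a log2 ratio of 0.01 (-0.09 to 0.12), and Hmox1 at 65.8 and 60.0 CPM. Slc7a11 had 2 UMIs in each library and its difference was not detectable at this depth. The median over the 7 Nrf2 members that passed was 0.25, beside -0.10 for all genes.

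In Kupffer cells Gclm, Srxn1 and Slc7a11 were past 1.5-fold lower in p16-Alb-LRTD, while Nfe2l2 was higher by less than 1.5-fold. Gclm was at 208 CPM in p16-LRTD against 94.3 in p16-Alb-LRTD, for a log2 ratio of -1.14 (-1.30 to -0.98). Srxn1 was at 37.5 and 23.7 CPM, a log2 ratio of -0.66 (-1.01 to -0.32), but of 0.11 in cells with 10000 to 30000 UMIs. Slc7a11 was at 11.9 and 2.68 CPM, on 71 and 12 UMIs, a log2 ratio of -2.15 (-3.17 to -1.26). These 3 were the members past 1.5-fold lower, of 9 that passed the limit, against 6.83% of the 9514 genes tested. Slc7a11 passed the limit only through its level in p16-LRTD, so that it had to differ, and the call of Srxn1 was also lost with the marker minimum doubled (-0.48), as a mean of per-cell CPM (-0.46) and with barcodes of several rules kept (-0.44), which makes the count no support for a difference of the members as a group.
Hmox1, which macrophages use to degrade the haem of engulfed red cells, was at 1657 CPM (1625 to 1690.2) and 1371 CPM (1337 to 1406), a log2 ratio of -0.27 (-0.32 to -0.23). Txnrd1 was at 355 and 296 CPM, a log2 ratio of -0.26 (-0.36 to -0.16). Gclc was at 81.1 and 72.7 CPM and the interval of its log2 ratio, -0.37 to 0.05, held 0. Nfe2l2 stood apart at 371 and 443 CPM, a log2 ratio of 0.25 (0.17 to 0.34). Nqo1 had 7 UMIs in p16-LRTD and 0 in p16-Alb-LRTD, where 3 counts would be 0.671 CPM. Over the 7 Nrf2 members that passed, the median log2 ratio was -0.27, beside -0.06 for all genes.

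Gclm in p16-LRTD had a tail of high cells. The top 10% of Kupffer cells held 60.4% of the Gclm UMIs in p16-LRTD and 33.4% in p16-Alb-LRTD, and the 99th percentile was 17.5 and 3.88 UMIs per 10000, whereas the medians were 0.941 and 0.692. The share of thinned cells with Gclm was 40.3% (34.5 to 46.3%) and 41.2% (33.9 to 48.9%), and 76.3% and 79.8% without thinning. Hmox1 was in 92.4% and 88.7% of thinned Kupffer cells, against 7.61% and 7.32% of stellate cells and 25.8% of endothelial cells in both libraries. Its level in stellate cells was 1.04% and 1.09% of that in Kupffer cells. With barcodes of several rules kept, the log2 ratio of Hmox1 in stellate cells was -0.36 in place of -0.21. The part of carried-over RNA in its stellate level was not tested. Kupffer cells of p16-Alb-LRTD were also deeper, with a median of 25101.5 UMIs against 19514. Markers of other cells summed in this class to 457 and 672 CPM for endothelial cells (6 of 6 detected in each library), 340 and 303 CPM for stellate cells (6 of 6), 4.37 and 26.4 CPM for lymphocytes (5 of 6, Ms4a1 at 0) and 78.9 and 74.9 CPM for neutrophils and monocytes (5 and 4 of 5), and their part in these differences was not tested.

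Mt2 was the 1 member past 1.5-fold higher in Kupffer cells, against 5.21% of genes, at 22.4 and 52.5 CPM and a log2 ratio of 1.23 (0.92 to 1.55). It rested on few cells, since 1 cell of p16-Alb-LRTD held 108 of its 235 Mt2 UMIs and 290 of its 1504 Mt1 UMIs. After thinning, 7.19% (4.45 to 10.9%) and 7.91% (4.39 to 12.9%) of Kupffer cells held an Mt2 UMI, and 18.0% and 24.7% without thinning. Mt1 was at 296 and 336 CPM, a log2 ratio of 0.19 (0.08 to 0.29).
The Kupffer rule admits macrophages low in Clec4f, the lectin that marks resident Kupffer cells, and the class was therefore divided, after these values had been seen, at 8 Clec4f UMIs per 10000. Cells at or above that level numbered 239 and 162. In them Mt2 was at 22.2 and 24.4 CPM, a log2 ratio of 0.14 (-0.27 to 0.55), and Mt1 at 275 and 257 CPM, a log2 ratio of -0.10 (-0.21 to 0.02), so that the metallothionein difference ended. Gclm remained past 1.5-fold lower in these cells, at 188 and 93.0 CPM, a log2 ratio of -1.01 (-1.19 to -0.84). The injury-associated macrophage genes Gpnmb and Spp1 were lower in the same cells too, Gpnmb at 271 and 62.5 CPM (log2 ratio -2.11) and Spp1 at 34.7 and 4.88 CPM (-2.83), while Timd4, a receptor of resident Kupffer cells, was at 240.0 and 318 CPM (0.41), and the part of such a difference in macrophage state in the Gclm value was not tested. Txnrd1 (-0.24) and Hmox1 (-0.13) kept intervals below 0, and Nfe2l2 (0.23) an interval above 0. Srxn1, at 30.9 and 24.7 CPM, was within 1.5-fold, and Slc7a11, at 5.02 and 1.22 CPM on 24 and 5 UMIs, fell below the level limit.
The 44 and 16 cells with less Clec4f were rich in Spp1 (1459 and 1625 CPM) and Gpnmb (2556 and 613 CPM), genes of macrophages in injured tissue. They held 47 of the 71 Slc7a11 UMIs of p16-LRTD. Mt2 in them was at 23.3 and 358 CPM and Hmox1 at 1987 and 640 CPM, values of so few cells that they describe these cells alone.

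**Figure D4:**
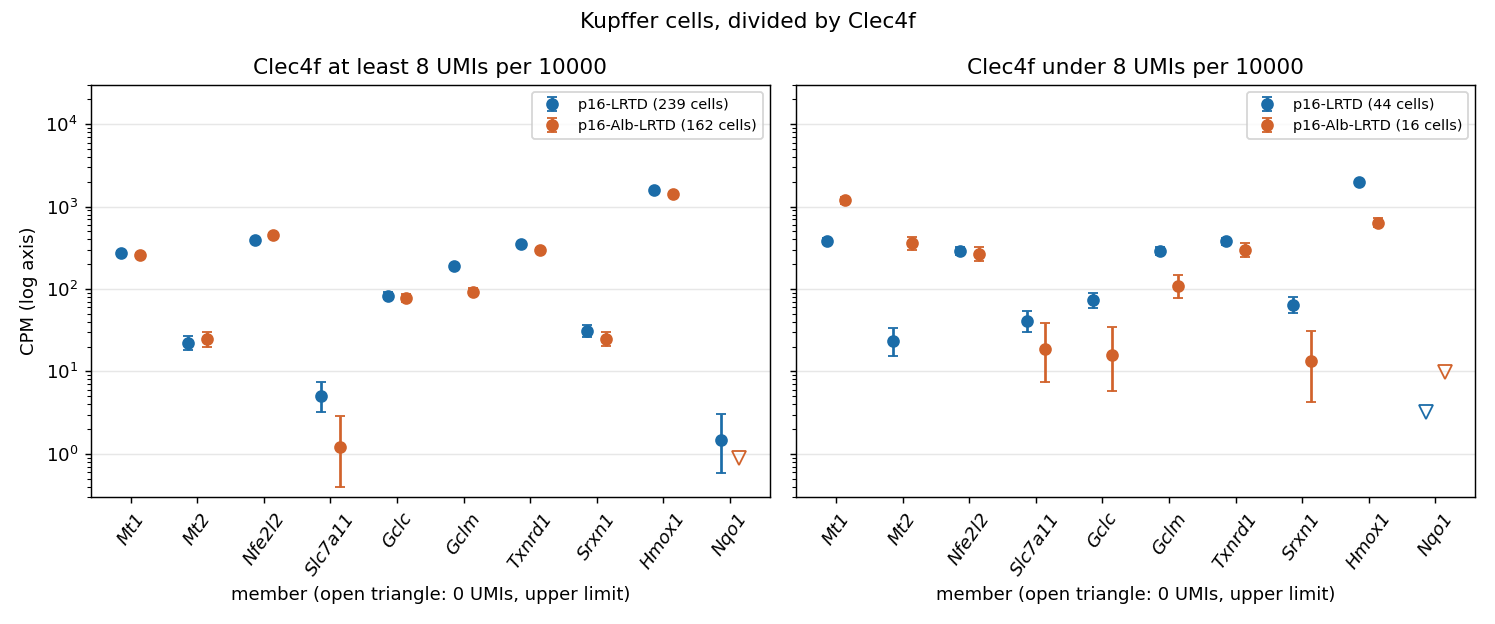
Level of each member in CPM (logarithmic axis, 95% Poisson intervals) in Kupffer cells with at least 8 (left, 239 and 162 cells) or fewer than 8 (right, 44 and 16 cells) Clec4f UMIs per 10000, 1 point per library. Left, Mt2 stands at 22.2 and 24.4 CPM and Gclm at 188 and 93.0 CPM. Right, Mt2 stands at 23.3 and 358 CPM.

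The UMI ratio of Mt1 to Mt2 was 3.23 (3.19 to 3.28) in stellate cells of p16-LRTD and 3.50 (3.46 to 3.54) in those of p16-Alb-LRTD. Endothelial cells had 3.27 (3.01 to 3.57) and 2.83 (2.59 to 3.097). Kupffer cells had 13.2 (11.1 to 15.9) and 6.40 (5.57 to 7.37), those with at least 8 Clec4f UMIs per 10000 had 12.4 and 10.5, and those with fewer had 16.4 and 3.34.

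Several members differed between the classes in their log2 ratio by more than counting error. From stellate to Kupffer cells the log2 ratio of Gclm changed by -1.05 (-1.22 to -0.88), that of Txnrd1 by -0.53 (-0.64 to -0.43) and that of Gclc by -0.41 (-0.63 to -0.20). The change for Hmox1 was -0.06 (-0.16 to 0.04) and for Srxn1 -0.22 (-0.58 to 0.13), intervals that hold 0. Stellate and Kupffer cells of a genotype come from the same library.

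The members were set beside 61 other antioxidant genes in 7 lists (Nrf2 regulators, glutathione, thioredoxin and peroxiredoxin, NADPH supply, haem and iron, superoxide and other Nrf2 targets). In stellate cells 57 of them passed the level limit, of which 1 was past 1.5-fold higher and 1 lower, or 1.75% each beside 3.03% and 3.05% of all genes. These were Maff, a small Maf partner of Nrf2, at 19.6 and 34.1 CPM, and Gpx3, an extracellular glutathione peroxidase, at 131 and 78.6 CPM. Of the 9 Nrf2 regulators 8 had a ratio above 1, beside 39.3% of all genes, with Mafk, another small Maf partner, at 34.5 and 43.6 CPM. Keap1 was at 52.8 and 54.0 CPM, a log2 ratio of 0.03 (-0.01 to 0.08). All 6 genes of NADPH supply had a ratio below 1, beside 60.7% of all genes, from -0.34 for Idh1 to -0.02 for G6pdx on the log2 scale, the latter with an interval that holds 0 (-0.13 to 0.08), as had 8 of 10 in the thioredoxin list, with Txnip, an inhibitor of thioredoxin, at 222 and 323 CPM. Sod3, the extracellular superoxide dismutase, was at 2061 and 1571 CPM.
In endothelial cells 55 passed, with 1 past 1.5-fold higher (Bach1, a repressor at antioxidant response elements, at 90.5 and 139.6 CPM), which is 1.82% beside 6.44% of all genes, and 9 lower, which is 16.4% beside 13.5%. Gpx3 (7.47 and 2.76 CPM) and Ephx1 (9.10 and 4.77 CPM) are among the 9. Each passed the limit only through p16-LRTD, so that it had to be lower. All 10 thioredoxin and peroxiredoxin genes had a ratio below 1 in endothelial cells, beside 60.3% of all genes. The intervals of Txnrd2, Prdx3 and Glrx held 0, and the list includes Txnip, the inhibitor.
In Kupffer cells 57 passed, with 2 past 1.5-fold higher (Maff and Txnip), which is 3.51% beside 5.21% of all genes, and 12 lower, which is 21.1% beside 6.83%. Akr1b8, counted among the 12, was at 10.8 and 2.68 CPM. It passed the limit only through p16-LRTD, so that it had to differ, and its place in the count is no support for a difference. In the cells with at least 8 Clec4f UMIs per 10000, 7 of 56 were past 1.5-fold lower, which is 12.5% beside 6.73% of all genes. Gpnmb (717 and 109 CPM) and Spp1 (313 and 141 CPM) were lower over the whole class too, and the part of this shift in macrophage genes in the list's values was not tested. The median log2 ratio over the 57 was -0.17, beside -0.06 for all genes. Examples chosen after their values had been seen were Prdx1, a peroxide-reducing enzyme, at 2298 and 1143 CPM, Fth1, the ferritin heavy chain, at 12669 and 6499 CPM, Cat, catalase, at 282 and 152 CPM, and Mgst1, a microsomal glutathione transferase, at 152 and 53.4 CPM. Against these, Gpx1 was at 1586 and 2034 CPM and Sod2 at 120 and 170 CPM. Keap1 in Kupffer cells was at 54.8 and 75.6 CPM, a log2 ratio of 0.46 (0.24 to 0.69).

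**Figure D5:**
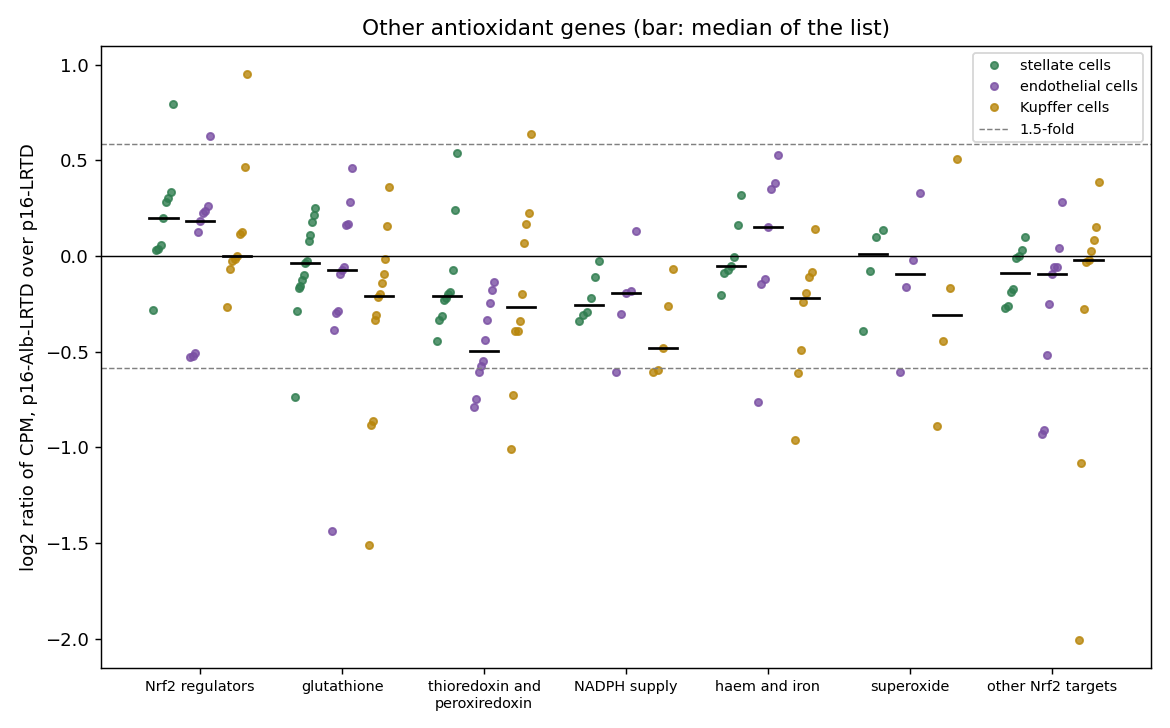
Log2 ratio of CPM (p16-Alb-LRTD over p16-LRTD) of the other antioxidant genes with a mean of at least 5 CPM, 1 point per gene, by list and coloured by cell class, with black bars at the list medians and dashed lines at 1.5-fold. In Kupffer cells 12 of 57 genes lie below the lower line and 2 above the upper line.

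A zinc list (Mtf1, Slc30a1, Slc39a8, Slc39a10, Slc39a14, Mt3 and Mt4) had 4, 5 and 5 of its 7 genes above the level limit in stellate, endothelial and Kupffer cells, and none of those was past 1.5-fold in its class. Mt3, a metallothionein known mainly from brain, was far under the limit in stellate cells, at 0.147 and 0.0559 CPM, a log2 ratio of -1.40 (-2.87 to -0.11). In stellate cells Mtf1, the metal-responsive factor, was at 27.5 and 27.4 CPM, a log2 ratio of -0.0049 (-0.07 to 0.06), and Slc30a1, a zinc exporter that MTF1 is known to induce, was at 6.92 and 5.10 CPM, a log2 ratio of -0.44 (-0.59 to -0.30). Of 8 genes of the ATF4 response, which shares Slc7a11 with the Nrf2 targets, 3 passed in stellate cells, and Ddit3, a transcription factor of the integrated stress response, was past 1.5-fold higher with a log2 ratio of 0.75.
The glucocorticoid list had 5 of 9 genes past 1.5-fold higher in stellate cells, 6 in endothelial cells and 5 in Kupffer cells, and the stress list 7, 9 and 5 of 12, beside 3.03%, 6.44% and 5.21% of all genes in these classes. Fkbp5, a glucocorticoid-induced chaperone partner, was at 64.3 and 256 CPM in stellate cells, 174 and 278 CPM in endothelial cells and 118 and 556 CPM in Kupffer cells. The metallothioneins are known to respond to the same signals, and their part in the metallothionein difference was not tested.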

How the data were processed

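Each genotype had 1 library of hepatic stellate cells (10x Genomics 3' v3.1). The authors deposited UMI counts that were not normalised, made per the labels with Cell Ranger 7.0.1 and mm10. Everything else was computed here. Barcodes with over 5% mitochondrial UMIs, under 2000 or over 7000 genes and those above 50000 UMIs did not enter, after the study's methods. No doublet caller was used, and these upper limits and the exclusion of barcodes meeting several class rules were relied on. Totals were 193746596 UMIs in p16-LRTD and 162219167 in p16-Alb-LRTD. UMIs of a class were added up over its cells and given as CPM, without division by gene length, with 95% Poisson intervals. Ratios carry exact conditional intervals and shares exact (Clopper-Pearson) intervals, after thinning to 5000 UMIs where stated. Intervals of differences between classes used the normal approximation to the log ratios of counts. A gene needed a mean of 5 CPM over the libraries and was called past 1.5-fold. The interval and ratio functions were tested on simulated counts. Near-identical or overlapping genes may share reads.

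All 10 members are named. Of other lists, counts are given and the 2 largest and 2 smallest ratios in stellate cells could be named, any other gene being chosen after its values were seen. The most similar genes were the 5 with the highest correlation in both libraries. Members and lists were chosen with earlier results of these data known. Coordinates are from GENCODE vM21, and promoter windows from the RefSeq table, whose entries matched 8 members. Tools were Python 3.11.15, numpy 2.4.6, scipy 1.17.1, pandas 2.3.3, matplotlib 3.10.9, R 4.3.3 and edgeR 4.0.16, the last for TMM factors only. Alternatives varied the barcode limits, class rules, scaling, depth range and cells included.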

Additional observations from a re-analysis of the deposited data

Results flagged for a closer look

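Txnrd1 had ratios on opposite sides of 1 in stellate and Kupffer cells, as had Slc7a11. The log2 ratio of Txnrd1 was 0.27 in stellate cells and -0.26 in Kupffer cells, each with a counting interval that excludes 0. It changed by -0.53 (-0.64 to -0.43) from stellate to Kupffer cells, an interval of counting error only, and with 1 library per genotype no test over replicates was possible. The log2 ratio of Slc7a11 was 0.19 in stellate cells and -2.15 in Kupffer cells, given as values alone, since Slc7a11 passed the level limit in Kupffer cells only through p16-LRTD, where it was high, and fell under it in the cells with at least 8 Clec4f UMIs per 10000. The Kupffer value rests on 71 and 12 UMIs, of which 47 and 7 were in the cells with fewer than 8 Clec4f UMIs per 10000.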

How the results depend on the processing

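No paired analysis was possible because there was a single library for either genotype. For single genes, 313 of 348 alternative values lay within the counting interval of the value given above, 33 outside it in the same direction or with an interval that held 0, and 2 turned a direction that had excluded 0. These were Srxn1 in Kupffer cells at 10000 to 30000 UMIs (0.11) and Mt1 in Kupffer cells with at least 8 Clec4f UMIs per 10000 (-0.10). Of 75 values for the metallothionein sum and the Nrf2 median, 62 lay within that interval (for the median, the median of the members' bounds). Of 42 counts of members, 32 were within 1.5 times the count given above, and 28 called the same members. In stellate cells the metallothionein log2 ratio was 0.64 under TMM scaling, 0.60 as a mean of per-cell CPM, 0.63 with equal collagen tertiles and 0.33 with equal stress tertiles. Without shared barcodes it was 0.59. The count past 1.5-fold there was 0 with equal stress tertiles, 2 at a minimum of 1 CPM (Nqo1 lower) and 0 at 2-fold, which 1.87% of all genes passed. In endothelial cells the metallothionein log2 ratio was 0.56 with barcodes of several rules kept and 0.50 under TMM scaling. The count there was 2 with those barcodes kept, with the marker minimum halved, as a mean of per-cell CPM and at 10000 to 30000 UMIs, and 3 under TMM scaling. In Kupffer cells the metallothionein log2 ratio was 0.45 as a mean of per-cell CPM, 0.80 at 10000 to 30000 UMIs and -0.077 with at least 8 Clec4f UMIs per 10000, an alternative chosen after seeing the data, as was leaving out shared barcodes. The Nrf2 median there was -0.20 with barcodes of several rules kept, -0.22 under TMM scaling, -0.40 without cells with a Mki67 or Top2a UMI and -0.19 in the Clec4f cells. The count there, 4 in all, was 2 with barcodes of several rules kept (Srxn1 and Mt2 lost), 1 in the Clec4f cells (Gclm) and 3 with the marker minimum doubled, as a mean of per-cell CPM and at 2-fold (Srxn1 lost in each), and at 10000 to 30000 UMIs it was 4 with Mt1 in place of Srxn1. The other antioxidant genes past 1.5-fold lower there went from 12 to 7 in the Clec4f cells. Apart from what the construction shows, the cause was not tested. Depth limits Nqo1, Srxn1 and Slc7a11 most, and no value here gives the spread between mice.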

Other observations

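Barcodes outside the classes also held the members. In the 194 and 113 barcodes that met no class rule, Mt1 was at 454 and 671 CPM and Mt2 at 111 and 208 CPM, with log2 ratios of 0.56 (0.47 to 0.65) and 0.91 (0.73 to 1.09). Gclc was at 39.6 and 95.7 CPM there, and Slc7a11 at 22.4 and 6.38 CPM. In the 245 and 221 barcodes that met several rules, Mt1 was at 436 and 661 CPM, a log2 ratio of 0.60 (0.53 to 0.67), and Hmox1 at 231 and 113 CPM, a log2 ratio of -1.04 (-1.17 to -0.91). Such barcodes mix classes, and Hmox1 in p16-LRTD was at 1657 CPM in Kupffer cells against 17.3 in stellate cells. The part of the Kupffer share of these barcodes in the Hmox1 value was not tested.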
